A study of Rattus norvegicus with 27 samples.

Results

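Some CpG positions of the rat genome carried exactly the same read counts as another position far away. These copied positions were taken from the second of 2 deposited tables, which lists 5477824 CpG positions in 12 libraries. A position was a member when it lay on an autosome, had 10 or more reads in all 12 libraries and had methylated and unmethylated counts equal in all 12 to those of another listed position. That other position had to lie on another chromosome or more than 1 kb away. The reads also had to stay below 5 times the library's median in every library, where the median was taken over the 1188788 autosomal positions with 10 or more reads in each library (common sites). The rule gave 73859 members, 6.21% of the autosomal common sites. Positions that share one set of counts cannot be told apart by them and are called a copy family here. A family can also hold neighbouring CpGs of 1 place whose counts are equal. The members formed 34617 families, and a family is counted once below unless positions or pairs are named. Members were thus chosen by their counts, their depth and their distance in the 12 libraries, so these values are descriptions and carry no test.

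The study profiled the renal outer medulla of Dahl salt-sensitive (SS) rats, which become hypertensive on salt, by reduced representation bisulfite sequencing (RRBS), with 1 library per rat. All 12 rats of the second table came from the MCW colony. The 0.4% salt group (n = 4) had the same surgery as the others and was sampled on 0.4% NaCl, before any GapmeR or high salt. GapmeRs are antisense oligonucleotides that lower a target RNA. HS_SCR rats (n = 4) had a scrambled one placed in the kidney at 4 mg/kg and spent 7 days on 4% NaCl. In the HS_DT group (n = 4) the GapmeRs targeted Dnmt3a (written Dnmt3 in one label) and Tet3, with 2 mg/kg of each. Their diet also held 4% NaCl, for 7 of a time unit that the labels leave out. The age of these 12 rats is not given in the labels. The first table holds 15 other SS rats, which the rule did not use: MCW SS LS (n = 3, AIN-76A diet with 0.4% NaCl until 8 weeks of age), MCW SS HS and CRL SS HS (n = 4 each, put at 6 weeks of age on AIN-76A with 4% NaCl, for 14 days) and CRL SS LS (n = 4, 5L2F diet with 0.75% NaCl until 8 weeks of age). The tissue holds several cell types, and the tables carry no expression values, so neither the knockdown nor the cell types could be checked. Total counts per library were 174400859 to 257658964 in the second table and 35040331 to 95102303 in the first.

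RRBS cuts DNA with MspI at CCGG and reads short fragments after bisulfite treatment, which turns unmethylated cytosine into a base read as T. Genomes hold segmental duplications, long stretches present more than once with nearly the same sequence. A short read from such a stretch matches every copy, and an aligner can drop it, place it at random or report it at each match. A count at such a position therefore need not belong to that position alone. CpG methylation is written by DNA methyltransferases such as Dnmt3a and oxidised by Tet enzymes such as Tet3. It is low in CpG-rich promoters and high in most repeats and gene bodies. Positions below are those of the deposited table on build rn5. No gene annotation of that build was used here, so they are given without gene names.

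Most copies came in pairs on 1 chromosome. Of the 34617 families, 31628 (91.4%) had 2 listed positions, 1907 had 3 and 728 had 4. The largest had 26. Neighbouring CpGs without methylated reads can share one set of counts, so the number of separate places, more than 1 kb apart, is the clearer measure of copy number. By places, 32167 families (92.9%) had 2, 1934 had 3, 382 had 4 and 134 had 5 or more, with at most 9. All places of a family lay on 1 chromosome in 29870 families (86.3%). In 3911 families (11.3%) every place was on a different chromosome, and 836 (2.42%) combined the 2 arrangements. A copy on the X chromosome was found in 505 families. The copied share of common sites was highest on chromosome 11 (9.06%) and 18 (8.67%) and lowest on chromosome 19 (3.03%) and 6 (4.28%).

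The distance between copies spanned more than 5 orders of magnitude, although most families lay within 1 Mb. In the 28674 families with 2 places on 1 chromosome the median distance was 233 kb, and the quartiles were 46.6 and 846 kb. The closest were 1053 bp apart and the farthest 242 Mb. Up to 10 kb there were 3525 families (12.3%), from 10 to 100 kb 7229 (25.2%), from 100 to 1000 kb 11398 (39.8%) and from 1000 to 10000 kb 6067 (21.2%). Only 455 families (1.59%) were farther apart. CpGs copied side by side share one distance and are each counted, so these are not numbers of separate duplications. One run on chromosome 1 held 425 families at 437 kb. Adjoining runs on chromosome 4 held 378 and 225 families at 85.8 and 85.5 kb. A median with each run counted once was not taken.

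**Figure D1:**
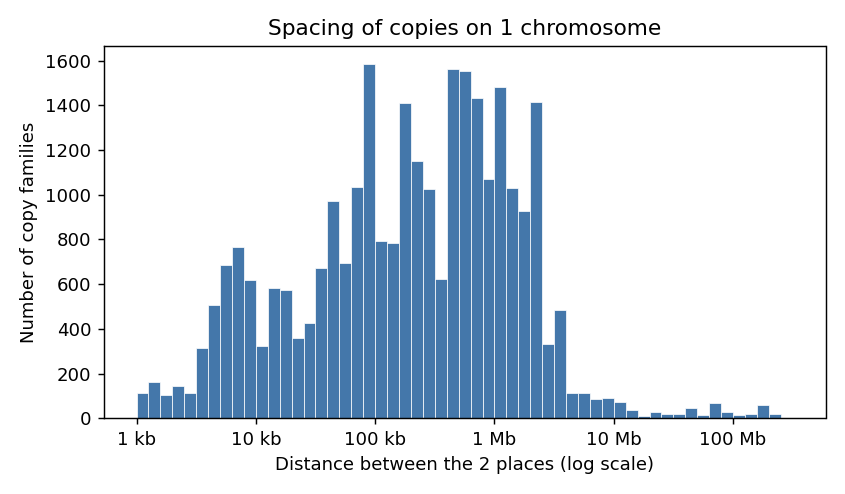
Number of copy families (vertical axis) by the distance between their 2 places on 1 chromosome (horizontal axis, log scale), for the 28674 families with exactly 2 such places. Most families lie between 10 kb and 10 Mb, with a median of 233 kb. The highest bin, from 79.4 to 100 kb, holds 1586 families. Families copied side by side share one distance and are each counted.

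Copied CpGs followed one another in stretches that kept their order and spacing. A stretch is a run of at least 3 copied CpGs at one distance from their copies, with gaps of up to 50 kb. Such runs held 69436 of the 73859 copied positions (94.0%). There were 2898 stretches in the same order, with a median of 6 CpGs over 148 bp, and 14 in mirrored order with a median of 4 CpGs. Of the direct stretches, 2280 (78.7%) had both copies on 1 chromosome. At least 10 CpGs were held by 859 stretches and at least 50 by 144. Members had somewhat fewer common sites around them than the other autosomal common sites, with a median of 11 against 13 within 250 bp on either side, the site included. This difference was not tested.

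The longest stretch held 443 copied CpGs over 142 kb of chromosome 1, from 220872969 to 221014858, with its copy from 221309758 to 221451647, a distance of 437 kb. All 470 common sites of the first copy had a common site at that distance, and 453 of the 470 pairs were equal in all 12 libraries, the 443 members among them. The levels along it ran from 0 to 97.0%, with 84.0% of the CpGs under 5% and 2.93% over 80%, so unmethylated clusters and methylated CpGs were copied together. The next lay side by side on chromosome 4. From 146839035 to 146870041 there were 381 copied CpGs, with the copy at 146924830 (85.8 kb away). From 146870594 to 146896095 there were 225, with the copy at 146956118 (85.5 kb away), and every one of the 225 common sites was equal. The fourth stretch had 203 CpGs on chromosome 11, 85926215 to 85965251, with a copy 1014 kb away at 86940271. The fifth had 170 CpGs over 8.64 kb of chromosome 12, 54372878 to 54381517, with a copy 33.0 kb away at 54405889.

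**Figure D2:**
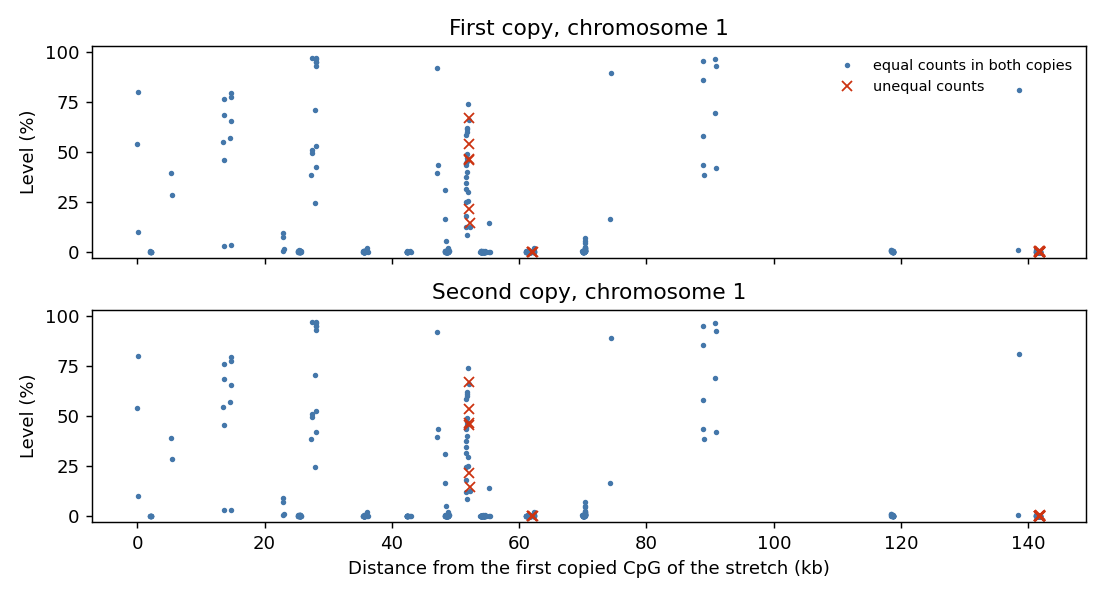
Methylation level pooled over the 12 rats (vertical axes, %) at each common CpG of the longest stretch, by distance from its first copied CpG (kb), in the first copy (top) and the second copy (bottom). The 453 CpGs with equal counts are dots, and the 17 with unequal counts are crosses whose levels differ between the copies by at most 0.240 points.

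Where counts within the stretches were not equal, the levels of most pairs were still close. Stretches were found by runs of equal CpGs, so copies that differ more were not eligible. Pairs near 0% can differ little, and the pairs were not split by level. Within all stretches, 39322 pairs of common sites stood at matching places, and 1709 of them (4.35%) differed in at least 1 library. The levels of these unequal pairs, pooled over the rats, differed by a median of 0.0126 points. In 96.0% the difference was at most 5 points, and in 1.05% it was over 20 points. Across these 1709 pairs the levels of the 2 places had a Pearson r of 0.990, as a description over sites that share libraries and may share reads. The depths were within a ratio of 1.1 in 80.9% and apart by more than 2 times in 3.45%. In 30.7% of the unequal pairs 11 of the 12 libraries were equal. In direct stretches 95.8% of the matching common sites were equal, and in the 14 mirrored stretches 70 of 134 (52.2%).

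Most of the pairs that could be tested were equal in the other 15 rats too. This readout is independent of the rule, which used none of those libraries. Of 46474 pairs of members of a family, both positions were listed in the first table in 46387, neither in 79 and only one in 8. With at least 10 reads in all 15 libraries of the first table there were 16573 pairs, of which 13386 (80.8%) were equal in all 15. Every pair within a family was counted, so families with many positions weigh more in this share. Among families of exactly 2 positions, 10236 of 11534 pairs (88.7%) were equal. Where a pair of such a family was unequal, its pooled levels differed by a median of 0.0184 points. By contrast, the stretch pairs that were unequal in the second table were equal in the first in 148 of 942 cases (15.7%). In the longest stretch 182 of 206 pairs were equal in the first table, in the second stretch 181 of 211, and in the third 59 of 59.

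Families with 2 or 3 places had median depths close to that of other positions, and families with more places had lower ones. Relative depth is the reads at a site divided by the library's median over autosomal common sites, taken as the median over the 12 libraries. It had a median of 0.977 in families with 2 places (quartiles 0.536 and 1.72), 0.986 with 3 places, 0.887 with 4 and 0.643 with 5 or more. Other autosomal common sites had a median of 0.993 (quartiles 0.534 and 1.80), and 0.956 when held to the same depth limit, against 0.975 for all families. The median reads per library were 64 to 98 reads at families with 2 places and 63 to 96 reads at families with 3. In every library the median at families with 4 or more places, 50 to 78 reads, was below that at families with 2 places. The depth limit is part of the rule and cuts high values from these sets. It left out 7699 copied positions in 3190 families. Just inside the limit stood the family of chromosome 1 at 189772309 and chromosome 5 at 125004585, with a highest relative depth of 4.989, and that of chromosome 1 at 117725394 and X at 106456472, with 4.989. Just outside stood chromosome 2 at 62438241 and 63045268, and chromosome 5 at 38078046 with 2 more places, each at exactly 5 times the median in 1 library.

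**Figure D3:**
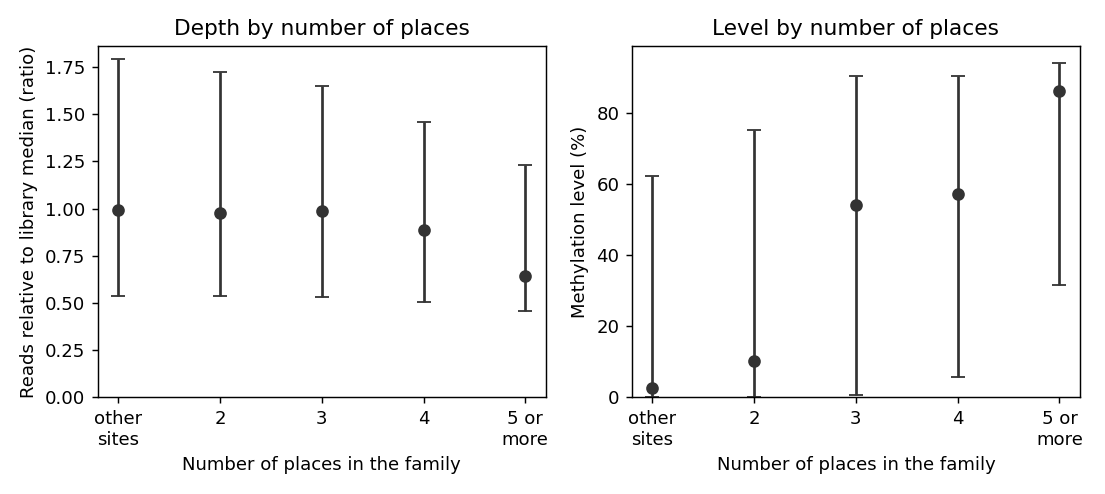
Left, reads relative to the library median (ratio), and right, pooled methylation level (%), for other autosomal common sites and for copy families by number of places (points: median, bars: quartiles). The median depth is 0.977 at 2 places, 0.986 at 3, 0.887 at 4 and 0.643 at 5 or more, in families cut by the depth limit of the rule. The median level goes from 10.05% at 2 places to 86.0% at 5 or more.

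Families with more places were more methylated. The mean level over families with 2 places was 33.6% ± 0.204 (SD over 12 rats), with 3 places 48.8% ± 0.252, and with 4 or more 54.2% ± 0.647. The 4747 families with copies on more than one chromosome had 56.95% ± 0.254, against 31.2% ± 0.204 in the 29870 families on 1 chromosome. The families as a whole were above the other autosomal common sites in 12 of 12 rats, by 5.76 points ± 0.0403 (SD). Their mean was 34.7% ± 0.202, against 28.99% ± 0.192. The other sites were not held to the depth limit and include the 7699 copied positions above it. The SD is over rats measured at the same sites, so it is no error of a difference between sets of sites. Other settings gave 5.33 to 7.75 points. No test is attached to the means above, because the members were chosen. The classes count a family once, also where it merges neighbouring CpGs, and other sites singly, so their shares are in unlike units. By class, 46.1% of families and 52.5% of other sites had a mean level up to 5%, and 23.6 and 22.5% lay above 20 and up to 80%. Levels above 95% were found in 8.04% of families and 5.44% of other sites. Put the other way, 5.59% of the common sites up to 5% were copied, and 8.89% of those above 95%.

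No methylated read was seen in 6001 families (17.3%), against 21.2% of the other sites. A family can merge neighbouring CpGs with equal counts, while other sites are counted singly. By position, 19.3% of members had no methylated read. For the 6001 families the depth was as follows. Their median depth was 1072 reads over the 12 libraries, where a count of 0 allows a level of up to 0.280% (3 counts of the total, counting error only). The 5 families with most listed positions were all of this kind. On chromosome 10, 26 positions shared one set of counts, from 44847149 to 44847241 and from 46955914 to 46956006. The 4 rats on 0.4% salt had 28, 40, 18 and 42 reads there, HS_SCR rats 20, 18, 14 and 24, and HS_DT rats 38, 14, 30 and 42, with 0 methylated among all 328, which allows up to 0.915%. These counts were all even, and the limit takes each count as a separate read, which was not tested. On chromosome 1, 21 positions in 3 places, starting at 265106293, 265258167 and 265357023, had 0 methylated of 440 reads. On chromosome 4, 3 families with 20 positions each lay in 5 places, the first at 234352727, 234377204, 234405141, 234442904 and 235057881, with 0 methylated of 452 reads. The other 2, at 234352756 and 234352862, had 0 of 452 and 0 of 456. Positions with equal counts only within 1 kb, which the rule leaves out, numbered 50895, and 96.8% of them had no methylated read in any library. Among members that share was 19.3%.

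Levels of most families with enough reads carried over to the first table. For 12828 families with at least 10 reads in all of its 15 libraries, the mean level there and the pooled level in the second table differed by a median of 0.590 points and by at most 10 points in 95.98%. Pearson's r was 0.992 across families, which are not independent. The mean over these families was 27.6% ± 0.175 (SD) in MCW SS LS (n = 3), 27.8% ± 0.198 in MCW SS HS, 27.5% ± 0.138 in CRL SS LS and 27.7% ± 0.204 in CRL SS HS (n = 4 each). The ranges of the 4 groups overlapped.

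The groups of the second table did not differ in the mean over families beyond the spread of the rats. The 0.4% salt rats stood at 34.9, 34.6, 34.7 and 34.9%, HS_SCR rats at 35.01, 34.8, 34.9 and 34.2%, and HS_DT rats at 34.7, 34.8, 34.7 and 34.7%. HS_SCR replicate 4 was the lowest of the 12, as it was at the other sites (28.5% there, against 28.9% or more in the other 11 rats). HS_SCR minus 0.4% salt was -0.0085 points (SE 0.191), HS_DT minus HS_SCR -0.0348 points (SE 0.182) and HS_DT minus 0.4% salt -0.0433 points (SE 0.0663), and all 3 pairs of groups overlapped. Without HS_SCR replicate 4 the first 2 were 0.168 and -0.212 points. With levels weighted by reads the 3 differences were 0.538, -1.01 and -0.472 points. Between-rat spread at families of 20 to 80% was like that of other sites of similar depth. The median SD over the 12 rats was 10.6 points in families with 10 to 50 reads and 10.5 points at other sites. It was 7.62 against 7.60 points at 50 to 100 reads and 5.95 against 6.19 points from 100 to 500 reads.

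**Figure D4:**
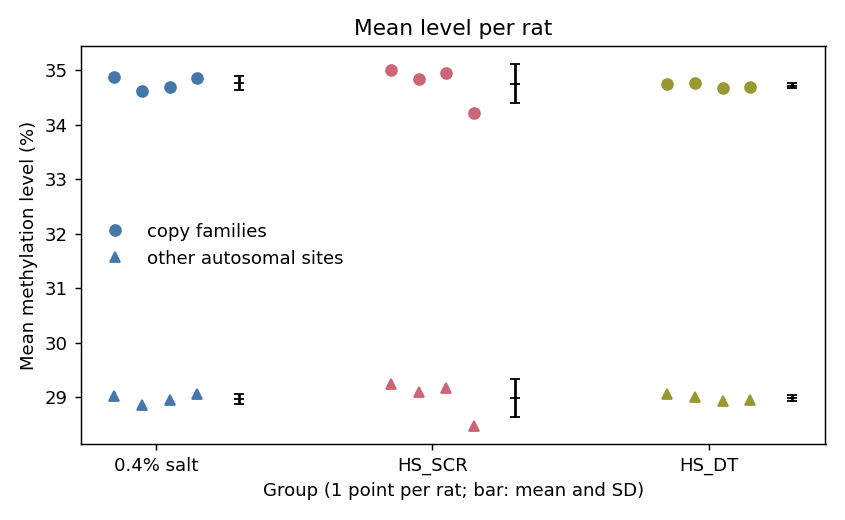
Mean methylation level (vertical axis, %) per rat over the copy families (circles) and over the other autosomal common sites (triangles) in the 3 groups of the second table, with mean and SD. Circles lie above triangles in 12 of 12 rats, groups overlap, and HS_SCR replicate 4 is lowest in both.

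No member passed the site test in any comparison. The test was a quasi-binomial model on the counts of each site with 1 value per rat, dispersion moderated by limma and p-values adjusted by Benjamini-Hochberg over all sites of the table with a pooled level of 5 to 95%. For HS_SCR against 0.4% salt, 0 of 33171 members (15861 families) were called, beside 0% of all 526526 sites. For HS_DT against HS_SCR it was 0 of 33209 (15891 families) beside 0% of 527815, and for HS_DT against 0.4% salt 0 of 33212 (15874 families) beside 0% of 525381. The smallest adjusted p among members was 0.666, 0.975 and 0.410 in this model. Limma on log2 ratios called 0 members in each comparison too. The comparisons share groups of rats, so they are not independent.

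At an unadjusted p below 0.05 the members were near the share of all sites. HS_SCR against 0.4% salt gave 1734 members (5.23%), or 831 of 15861 families (5.24%), beside 5.44% of all sites. HS_DT against HS_SCR gave 1768 members (5.32%), or 845 families (5.32%), beside 4.92%. HS_DT against 0.4% salt gave 1917 members (5.77%), or 909 families (5.73%), beside 5.61%. Limma on log2 ratios gave 1614 members (4.87%), 1610 (4.85%) and 1715 (5.16%), beside 4.51, 4.46 and 4.91% of all sites. With a block on animal number (low against high numbers), HS_SCR against 0.4% salt gave 8.07% of members beside 7.77% of all sites. All 0.4% salt rats had high numbers and HS_SCR held both, so this contrast rested on the high-numbered HS_SCR rats. Of the 831 families, 400 were higher and 431 lower in HS_SCR, beside 2.85% higher and 2.59% lower over all sites. Of the 845 families, 425 were higher and 420 lower in HS_DT, beside 2.49 and 2.43% over all sites. Of the 909, 448 were higher and 461 lower, beside 2.92 and 2.69%. The median difference over the families tested was -0.0444, -0.00224 and -0.0074 points, beside 0.0235, -0.0316 and 0.0343 over all sites tested. Groups did not overlap in 415 families (2.62%), 405 (2.55%) and 447 (2.82%), beside 2.52, 2.57 and 2.84% of all sites. A called position would be counted at every copy: those 831 families stand for 1734 rows of the table.

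The families with the smallest p for HS_SCR against 0.4% salt differed by up to 39.8 points without passing the adjusted test. On chromosome 3, at 169223090 and 169621238, the 0.4% salt rats had 16.0, 16.3, 21.4 and 21.4%, HS_SCR rats 57.5, 46.2, 56.2 and 37.5%, and HS_DT rats 33.3, 52.4, 43.8 and 44.0%, at 32 to 98 reads. Both high-salt groups lay wholly above the 0.4% salt group (HS_SCR by 30.6 points, adjusted p = 0.666 in the limma-moderated model). Of 7 other families tested within 250 bp, 5 had the same sign, with a median difference of 2.08 points. Families this close can share reads of the same rats, so here and below their signs are no independent check. In the first table this family, equal at both places, had 58.6% ± 18.5 in MCW SS HS (SD, n = 4) and 32.5% ± 12.6 in MCW SS LS (n = 3), at 18 to 72 reads. On chromosome 7, at 142111964 and 143230709, levels were 63.6, 45.5, 55.6 and 63.6% on 0.4% salt, 100, 87.5, 100 and 100% in HS_SCR and 81.8, 90, 90 and 85.7% in HS_DT, at only 14 to 22 reads. The groups did not overlap, but 2 of the 6 other families within 250 bp had the same sign. On chromosome 8, at 47662073 and 47663619, only 1 rat on 0.4% salt had methylated reads (0, 3.08, 0 and 0%), while HS_SCR rats had 23.3, 12.3, 37.3 and 7.62%, and 14 of 15 other families within 250 bp were higher too. In the 3 rats with a count of 0 it allows up to 6.00, 4.62 and 2.68%.

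Lower levels in HS_SCR were found at 3 loci named by the same rule. On chromosome 1, at 76788731 and 76797753, the 0.4% salt rats had 68.9, 54.4, 64.5 and 67.2% and HS_SCR rats 39.7, 41.9, 42.2 and 46.3%. In the first table the MCW SS HS mean was 61.9% ± 19.1 and the MCW SS LS mean 54.3% ± 6.88, the other way round and within the spread. On chromosome 9, at 48542667 and 48579321, levels were 100, 95.5, 94.0 and 93.7% against 74.4, 80, 82.0 and 82.1%, with 1 of 2 neighbours lower. Another family on chromosome 1, at 88743783 and 88850677, had 41.4, 58.5, 42.0 and 44.0% on 0.4% salt and 33.2, 20.1, 24.8 and 29.7% in HS_SCR, and 27 of 28 other families within 250 bp were lower, with a median difference of -13.5 points. HS_DT rats there had 44.3, 42.5, 43.0 and 33.8%. In the first table the family had 50.2% ± 26.0 in MCW SS HS (SD, n = 4) and 51.9% ± 32.1 in MCW SS LS (n = 3), with no such difference. Groups did not overlap at these 3 loci, and the adjusted p was 0.675, 0.675 and 0.737 in the limma-moderated model.

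For HS_DT against HS_SCR the smallest p values belonged to differences of 15 to 26 points. The same stretch of chromosome 1 appeared again, at 88743936 and 88850830. HS_SCR rats had 26.9, 33.3, 17.1 and 27.1%, HS_DT rats 46.9, 39.5, 54.8 and 37.0%, and 0.4% salt rats 52.9, 56.9, 40.6 and 42.0%. Of the 34 other families within 250 bp, 32 were higher in HS_DT, with a median of 9.51 points. In the second table HS_SCR was the group that stood apart there, and the same HS_SCR rats stand in both comparisons. In the first table this family had 36.8% ± 13.8 in MCW SS HS (SD, n = 4), at 13 to 64 reads. MCW SS LS (n = 3) had 31.4% ± 10.8 there, so high salt was not the lower group, and the difference was within the spread. On chromosome 4, at 237114375 and 237315362, HS_DT was at 81.7% ± 3.49 (SD, n = 4) and HS_SCR at 66.96% ± 7.31. On chromosome 1, at 70430968 with copies at 70482205 and 70489484, they were at 94.4% ± 6.42 and 70.3% ± 13.6, at 18 to 42 reads.

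Lower levels in HS_DT than in HS_SCR stood on chromosomes 3, 6 and 12. On chromosome 3, at 14774670 and 15406864, HS_SCR rats had 93.1, 93.8, 92.3 and 89.1% and HS_DT rats 68.4, 77.5, 64.6 and 80%. On chromosome 6 at 38975077, with its copy on chromosome 7 at 116277, the levels were 70.9, 70.6, 72.5 and 63.4% against 59.8, 51.3, 54.5 and 50.5%. On chromosome 12, at 23775010 and 24031782, they were 61.9, 63.9, 78.3 and 72.2% against 52.9, 39.4, 30.4 and 50%, a difference of -25.9 points. The 4 other families within 250 bp were lower too, by a median difference of only -3.45 points. Of the other families within 250 bp, 1 of 2 at the chromosome 3 family and 7 of 9 at the chromosome 6 family had the same sign, and so did 2 of 3 at the chromosome 4 family and 0 of 1 at the chromosome 1 family at 70430968. The groups did not overlap at these 3 loci. The adjusted p of all 6 families was 0.975 in the limma-moderated model. The first table has no rats with GapmeRs. Its MCW SS HS and MCW SS LS means were 69.6% ± 12.9 and 62.5% ± 17.5 at the chromosome 6 family. At the chromosome 12 family they were 59.6% ± 22.7 and 60.3% ± 18.7.

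For HS_DT against 0.4% salt, the smallest unadjusted p of a member was 4.11e-06 in the limma-moderated model, and 2 of all 525381 sites had a smaller one. At this family on chromosome 7, at 142130726 and 143248697, the 0.4% salt rats had 75.5, 62.2, 71.7 and 76.4%, HS_SCR rats 54.7, 61.0, 64.0 and 68.6% and HS_DT rats 46.1, 49.5, 46.6 and 37.9%. HS_DT lay wholly below the other 2 groups (-26.4 points against 0.4% salt, adjusted p = 0.410 in the limma-moderated model), at 75 to 145 reads. All 3 other families tested within 250 bp were lower, by a median difference of -20.8 points. A family in 4 places, on chromosome 5 at 126926046 and on chromosome 8 at 126107832, 126114713 and 126121833, had 14.4, 17.2, 12.9 and 5.05% on 0.4% salt and 1.19, 3.28, 1.98 and 3.65% in HS_DT. HS_SCR rats there had 0.766, 4.84, 4.90 and 6.36%, which overlapped both HS_DT and the 0.4% salt group. In the first table all 4 places were equal, with 1.92% ± 3.85 in MCW SS HS and 2.15% ± 3.72 in MCW SS LS. On chromosome 8, at 23722678 and 24232128, HS_DT had 57.1% ± 4.08 and 0.4% salt 73.7% ± 6.23. HS_SCR had 61.8% ± 9.97 there and overlapped both.

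Higher levels in HS_DT than on 0.4% salt included the chromosome 3 family at 169223090 described above, with 43.4% ± 7.80 (SD, n = 4) against 18.8% ± 3.04. On chromosome 11, at 20072607 and 20088645, the 0.4% salt rats were within 1 point of each other (83.3, 83.7, 83.9 and 83.9%) and HS_DT rats had 96.2, 93.5, 93.6 and 98.7%. HS_SCR rats there had 93.4, 95.7, 70.4 and 98.0%. In the first table MCW SS HS had 84.2% ± 15.3 and MCW SS LS 92.0% ± 13.9, with the lower mean on high salt and within the spread. On chromosome 4, at 182219000 and 182399995, the 0.4% salt rats had 81.4, 93.0, 91.7 and 91.1% against 96.8, 100, 100 and 100% in HS_DT. HS_SCR rats there had 93.5, 94.4, 90.2 and 93.1%, below all HS_DT rats. In the first table MCW SS HS had 95.5% ± 3.72 and MCW SS LS 94.8% ± 5.60, within the spread. Of the other families within 250 bp, 2 of 5 on chromosome 11 and 1 of 3 on chromosome 4 had the same sign, so most neighbours went the other way. The adjusted p of these 6 families was 0.410 to 0.632 in the limma-moderated model.

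**Figure D5:**
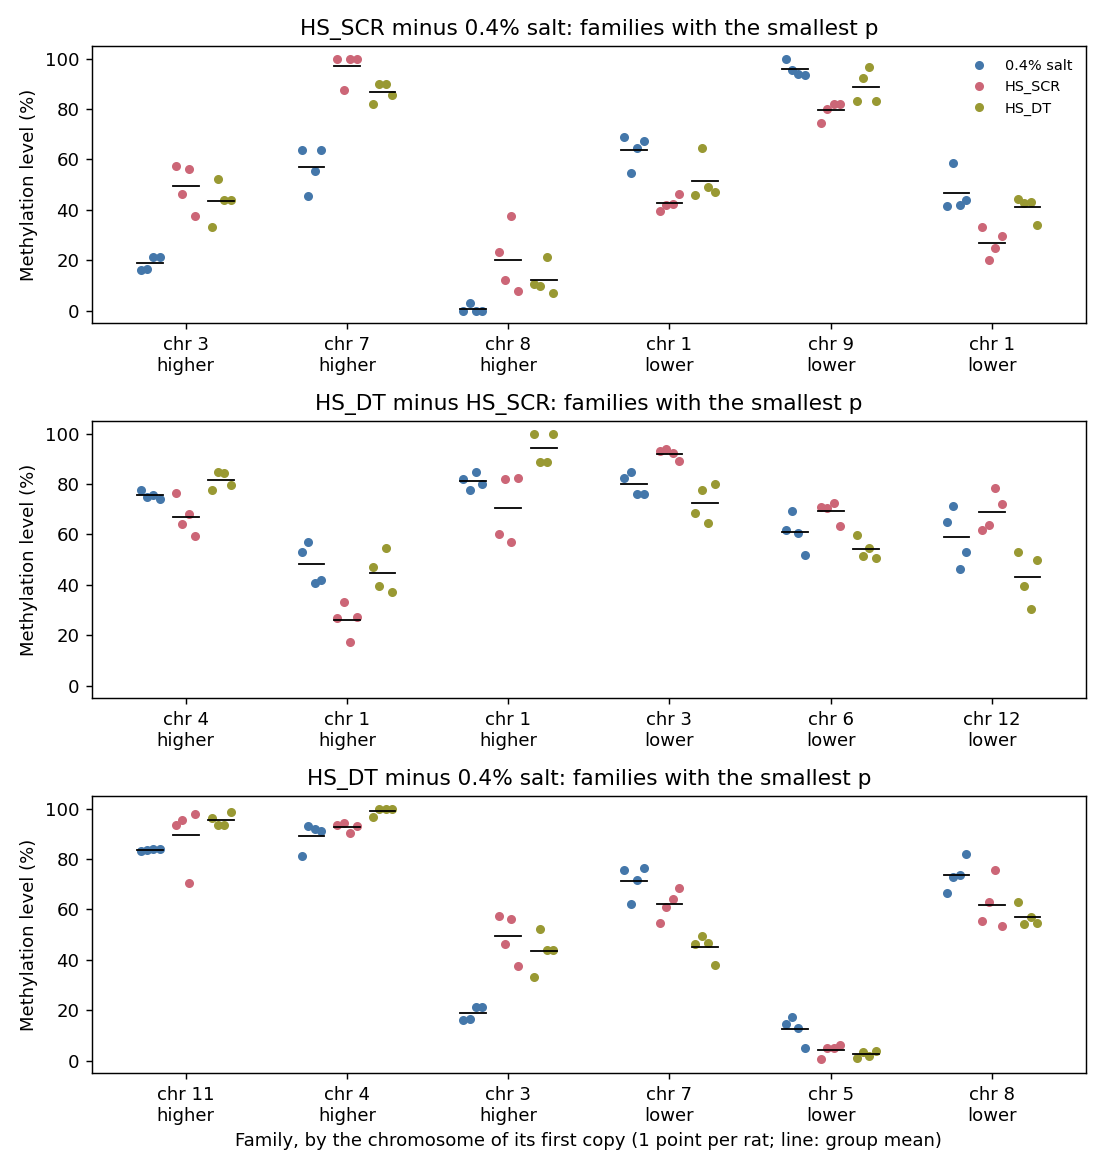
Methylation level (vertical axis, %) of each rat at the 3 families with the smallest p in each direction, for the 3 comparisons (panels), with group means as lines. The 2 groups compared do not overlap at any family shown, and no adjusted p is below 0.410.

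Counts that were even in every library were more frequent among families with a small p, and so they were over all sites tested. All C and T counts of the 12 libraries were even in 12.5% of families and 12.3% of other autosomal common sites. Of the families tested for HS_SCR against 0.4% salt, 11.2% were even throughout, and of the 831 with an unadjusted p below 0.05, 17.3% were. Over all sites tested the shares were 10.4 and 16.0%. For HS_DT against HS_SCR the family shares were 11.2 and 17.8%, beside 10.4 and 17.3% over all sites. For HS_DT against 0.4% salt they were 11.2 and 17.2%, beside 10.4 and 16.0%. Among the named families, those on chromosome 3 at 169223090 and 14770822 and on chromosome 7 at 142111964 had even counts throughout. So did those on chromosome 1 at 76788731 and 70430968 and on chromosome 10 at 44847149. The part of even counts in these p-values was not tested.

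Among families of 20 to 80% pooled level, 3 varied most between rats. On chromosome 4, at 242971678 and 242984626, the 0.4% salt rats had 50, 80, 57.1 and 0%, HS_SCR rats 0, 0, 0 and 31.9% and HS_DT rats 58.8, 62.8, 0 and 0%, at 28 to 172 reads. Its unadjusted p was 0.00235 for HS_SCR against 0.4% salt and 0.00781 for HS_DT against HS_SCR, with adjusted p of 0.820 and 0.994 in the limma-moderated model. A family in 5 places, on chromosome 1 at 13562019, chromosome 5 at 95178880 and chromosome 14 at 46698625, 46826578 and 46828532, ranged from 0 to 100% at 10 to 66 reads. On chromosome 3, at 14770822 and 15403016, levels ran from 11.1 to 100% at 10 to 40 reads. All groups overlapped at these 3 families.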

How the data were processed

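Genomic DNA libraries were made by RRBS, 1 per rat. The deposited tables hold counts of C (methylated) and T (unmethylated) reads per CpG position and animal, per the file headers. Empty cells were taken as 0 reads. The submitters' processing notes name Trim Galore 0.2.5 and build rn5. Not given in the sources used here are the aligner, its treatment of reads with several matches, the methylation caller and any removal of PCR duplicates. The first 3 bear directly on equal counts. Columns were matched to samples by animal number.

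Members were found by exact equality of the 24 counts. The members, the lists and the tests were chosen with earlier results of these data known. Named loci are the 5 families with most positions, the 5 longest stretches, per comparison and direction the 3 families with the smallest p (1 per stretch), the 3 most variable families and those next to the depth limit. Site tests were quasi-binomial logistic models with dispersion moderated by squeezeVar (limma 3.58.1, R 4.3.3) and held at 1 or more, with F tests on the deviance. The limma alternative used log2 ratios with 0.5 added to each count. Level is methylated counts as a percentage of all counts, and binomial limits cover counting error only. The copy search and the test were checked on simulated data. Python 3.11.15, numpy 2.4.6, scipy 1.17.1 and matplotlib 3.10.9 were used. Alternatives were other depth, distance and level limits, other models, blocks and each rat left out.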

Additional observations from a re-analysis of the deposited data

Results flagged for a closer look

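In 11 of 88 groups of 4 rats, 1 rat stood apart from the other 3 by a gap of most of the group's range. Chance flags about 1 in 20 such groups, and most of these loci were named for a small p or a large spread. That rate does not cover groups with 3 rats tied at 0 or 100%, where any other value stands apart by the whole range. On 0.4% salt the rats standing apart had 3.08% on chromosome 8 at 47662073, 58.5% on chromosome 1 at 88743783, 81.4% on chromosome 4 at 182219000, 0.881% on chromosome 2 at 62438241 and, in the mean of the stretch of chromosome 4 from 146870594, 9.47%. In HS_SCR they had 87.5% on chromosome 7 at 142111964, 70.4% on chromosome 11 at 20072607, 31.9% on chromosome 4 at 242971678 and 41.7% on chromosome 3 at 14770822. In HS_DT they had 64.6% on chromosome 1 at 76788731 and 96.8% on chromosome 4 at 182219000.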

How the results depend on the processing

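No member was called in any of the 24 fits that left out 1 rat or the 21 fits under other settings, with 4.69 to 8.07% of members and 4.46 to 7.77% of all sites at an unadjusted p below 0.05. Of these 45 fits, 10 called other sites of the table, at most 6. For HS_SCR minus 0.4% salt these were 6 without 0.4% salt replicate 3, 6 without HS_SCR replicate 4 and 3 with a block on animal number. That block compares the 0.4% salt rats with high-numbered rats only, which is 1 rat in HS_DT. The number of copied positions stayed within 1.5 times except with copies on another chromosome only, where 10945 positions in 4747 families remained as members. The excess of families over other sites was 5.50 points at a minimum of 20 reads, 5.98 without the depth limit, 5.97 at a distance over 10 kb, 5.33 with every position counted and 7.75 weighted by reads. Weighted by reads, HS_SCR minus 0.4% salt was 0.538, HS_DT minus HS_SCR -1.01 and HS_DT minus 0.4% salt -0.472 points. The share of pairs equal in the first table was 82.0% at a minimum of 20 reads, 74.4% without the depth limit, 83.5% at any count and, chosen after the data were seen, 88.7% in families of 2 positions. The causes were not tested.

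With the replicate block, same-numbered rats differed by -0.0085, -0.0348 and -0.0433 points, and 0 members and 2, 1 and 0 of all sites were called. The numbers are no pairing in the labels: deviations of same-numbered rats correlated at -0.0191 to 0.0588, and 2, 1 and 1 of 4 rats correlated best with their own number.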
